A study of Homo sapiens with 32 samples.

Results

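The repressive MACC was compared with and without its inducer in LNCaP, a prostate cancer line that was derived from a lymph node lesion and depends on androgen. The comparison rests on 8 of the 32 RNA-seq libraries of the series, 4 from repressive cells given 2.5 µM tamoxifen and 4 from the same line given vehicle (ethanol), each harvested at 48 h. MACC constructs join a DNA binding domain that recognises androgen response elements to ERT2, a mutant estrogen receptor ligand binding domain that takes the protein into the nucleus when tamoxifen binds it, and to a 3X FLAG tag. The repressive form adds KRAB, the neutral form carries the tag alone and the activating form adds VP64, and each of these lines and the parental line was treated in the same way with 4 libraries per condition. All construct lines were made by lentiviral infection and blasticidin selection, and the vehicle cells of the repressive line carry the same construct as the tamoxifen cells. Each construct is represented by a single stable LNCaP line, and the libraries are labelled as biological replicates of that line, so p-values describe the spread between cultures of it.

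Androgen response elements are palindromes of the hexamer AGAACA, and in prostate luminal cells androgen acts through them to raise secreted proteases, genes of lipid and glucose metabolism and feedback regulators of the hormone response. KRAB is the silencing domain of many zinc finger proteins. It recruits KAP1 (TRIM28) and, through it, a histone H3 lysine 9 methyltransferase, which lowers transcription near the bound site. The comparison therefore asks which genes changed when a silencing domain was brought to androgen response elements in cells that keep their own androgen response.

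Tamoxifen changed 709 of 3985 tested features in the repressive line, which is 17.8% of them, with 311 higher (7.8%) and 398 lower (9.99%). Calls rest on the quasi-likelihood test of edgeR, adjusted after Benjamini and Hochberg, at 0.05, and unadjusted p-values were under 0.05 for 1194 features. Changes of at least 1 on the log2 scale were seen for 167 of the lowered and 55 of the raised features. Lowered features included the androgen-induced genes KLK3, FKBP5 and PMEPA1, the epidermal genes HRNR and FLG, the GLYATL1 cluster on chromosome 11 and a block of mitochondrial genes. NME7, HEATR1, H2AFY and features around MYNN on chromosome 3 were among the raised ones. The plot of response against mean count shows that the larger falls reached further from 0 than the larger rises.

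**Figure D1:**
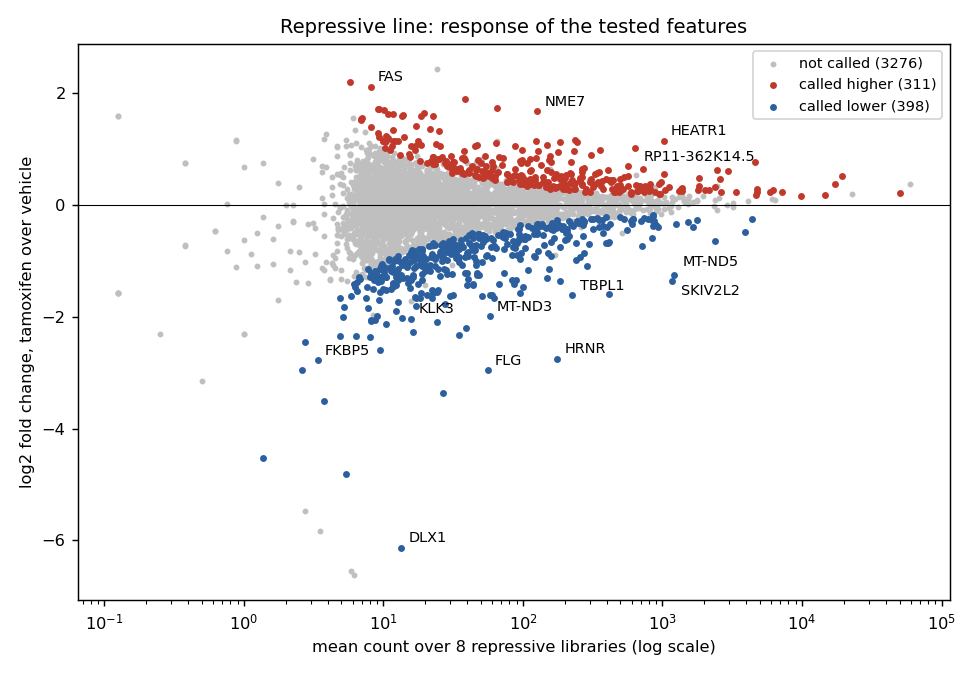
Log2 fold change of tamoxifen over vehicle in the repressive line (y axis) against the mean count over its 8 libraries (x axis, log scale) for 3985 tested features, where red points were called higher (311), blue points lower (398) and grey points neither. HRNR at -2.75 and NME7 at 1.68 lie apart from features of like abundance.

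Totals per library were 470343 to 736098 with vehicle and 565168 to 791496 with tamoxifen, and no difference between treatments was detected (exact two-sided permutation p = 0.514). ESR1, which supplies ERT2, had 68 to 126 counts in vehicle libraries and 89 to 159 in tamoxifen libraries, against 0 to 2 in the parental line. ZNF10, the zinc finger gene from which many synthetic repressors take their KRAB domain, had 11 to 20 and 11 to 17 counts, and 0 in each parental and neutral library. Neither passed the test with tamoxifen (log2 fold changes of 0.08 and -0.06, edgeR adjusted p = 0.715 and 0.927). Summed counts of 14 LNCaP and luminal identity genes were 679 to 1198 with vehicle and 790 to 1104 with tamoxifen. Of 10 fibroblast markers 7 were at 0 in all 8 libraries, COL1A2, COL3A1 and DCN among them, and the list summed to 0 to 1 counts per vehicle library and 0 to 6 per tamoxifen library. Immune markers summed to 1 to 19 and 4 to 10, with PTPRC and CD3E at 0, and endothelial markers to 14 to 20 and 4 to 15, with CDH5 and KDR at 0. In bulk RNA, fewer cells of a type and less RNA per cell cannot be told apart.

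A property of the table bears on each value below. In the repressive libraries 80.0% of the counts on annotated features fell on features that share exonic bases with a gene of the other strand. GAPDH, an abundant glycolysis gene, averaged 66.8 counts per library and the short feature opposite it, RP5-940J5.9, had 17315. FTH1 had 16.5 and BEST1, which lies opposite it, had 19498. The library kit marks strand and the strand setting of the counting is not given in the sources used here, so a listed gene is read below both by its own feature and by the tested feature opposite it, and which RNA a count came from cannot be told. No difference in this share was detected between the treatments (exact permutation p = 0.743). Of the 902 tested features with no opposite-strand exon, 46 were higher and 92 lower, a called share of 15.3%.

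KLK3, which encodes prostate-specific antigen, was the only kallikrein called. On chromosome 19 from 51358171 to 51364020 (GRCh37) and free of opposite-strand exons, it had normalized counts (CPM after TMM scaling) of 48.7, 37.3, 21 and 34.8 in vehicle replicates 1 to 4 and of 12.9, 8.70, 9.16 and 4.52 in the tamoxifen replicates. All 4 tamoxifen libraries lay below the lowest vehicle library, with means of 35.5 ± 11.4 and 8.81 ± 3.42 (SD, n = 4 each) and a log2 fold change of -2.03 (standard error, SE, 0.327, edgeR adjusted p = 3.16e-05). Such separation was seen for 20.7% of all tested features, lower for 9.71% and higher for 11%. KLK2, its neighbour, changed by -0.45 and KLK4 by -0.72, and neither passed the test (edgeR adjusted p = 0.531 and 0.213). Thus 1 of the 3 kallikreins tested was called, beside 17.8% of all tested features. Of the 16 kallikrein genes listed, 6 had any count.

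FKBP5, an androgen-induced co-chaperone of the heat shock protein HSP90, was near the floor of these libraries. It had 6, 8, 3 and 7 counts in the vehicle replicates and 1, 1, 1 and 0 in the tamoxifen replicates. The sums of 24 and 3 counts give a vehicle to tamoxifen ratio of 7.65 after scaling, with an exact 95% interval from 2.32 to 39.7 that covers counting error only (edgeR adjusted p = 0.00394). PMEPA1, a membrane protein that dampens TGF-beta signalling, went from normalized counts of 23.7, 21.7, 15.3 and 20.9 to 3.86, 8.70, 6.11 and 3.01, a log2 fold change of -1.98 (SE 0.396, edgeR adjusted p = 0.000516), with no overlap between treatments. Its exons overlap those of NKILA.

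The other androgen response genes that passed the test on their own feature act in lipid metabolism, signalling and chromatin. ELOVL5, a fatty acid elongase, changed by -1.56 on the log2 scale, VAPA, an endoplasmic reticulum tether, by -1.19 and STK39, a kinase of ion cotransporters, by -1.66 (edgeR adjusted p = 0.00365, 0.00116 and 0.0285). STK39 had 12, 6, 4 and 8 counts under vehicle and 2, 1, 4 and 2 under tamoxifen, and it no longer passed with DESeq2 or without tamoxifen replicate 1, 2 or 4 or vehicle replicate 1 or 4 (adjusted p up to 0.131). FADS1, a fatty acid desaturase whose exons overlap those of FADS2, rose by 0.46 and H1F0, a linker histone, by 0.86 (edgeR adjusted p = 0.000564 and 0.00727). CENPN, a centromere protein, changed by -0.48, and no longer passed with DESeq2 or without tamoxifen replicate 1 or 2 or vehicle replicate 2, 3 or 4 (-0.29 without tamoxifen replicate 1). Of 101 androgen response genes, 33 were tested on their own feature, and 2 were called higher and 7 lower. Over all tested features 7.8% were called higher and 9.99% lower. The median log2 fold change of the 33 was -0.14, against 0.0048 over all tested features.

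Read by the feature on the opposite strand, 25 androgen response genes were tested, 0 were called higher and 7 lower, with a median of -0.28. The shares over all tested features were again 7.8% higher and 9.99% lower. PPAP2A, a lipid phosphate phosphatase gene, is read by SKIV2L2 on chromosome 5 from 54603817 to 54721407. SKIV2L2 had normalized counts of 2758, 2201, 2319 and 2454 under vehicle and 990, 942, 1032 and 978 under tamoxifen. The tamoxifen libraries lay within a narrow range far below the vehicle ones, and the log2 fold change was -1.35 (SE 0.063, edgeR adjusted p = 1.12e-15), the smallest p-value among the features named here. PPAP2A on its own feature changed by 0.22 and was not called (edgeR adjusted p = 0.455).

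CCDC152, which overlaps the selenium carrier gene SEPP1, went from 4628, 3948, 4106 and 3941 to 2840, 2790, 2756 and 2667, a log2 fold change of -0.64 (edgeR adjusted p = 1.49e-09). RP11-326A19.5, opposite the lipid hydrolase gene ABHD2, went from 6527 ± 519 to 4841 ± 241 (SD, n = 4 each), a change of -0.48 (edgeR adjusted p = 8.65e-08), while ABHD2 itself changed by 0.15 (edgeR adjusted p = 0.396). Smaller changes were measured opposite ALDH1A3, a retinaldehyde dehydrogenase (-0.36), SORD, sorbitol dehydrogenase (-0.30), and PGM3, a hexosamine pathway enzyme (-0.28, by DOPEY1). On their own features SORD (-0.50) and PGM3 (-0.17) were not called (edgeR adjusted p = 0.345 and 0.522). DOPEY1 no longer passed with DESeq2 or without tamoxifen replicate 3 or 4 or vehicle replicate 1, 2 or 4. CMC2, which overlaps CENPN, went from 498, 588, 484 and 677 to 224, 240, 258 and 372, a change of -1.09 (edgeR adjusted p = 0.00289), so both features at this locus were lower. Read either way, 43 of the 101 genes had a tested feature, 13 were called lower and 2 higher. Of the 43, 15 were read both ways and could be called by either feature. The shares per feature, 9.99% lower and 7.8% higher, are therefore not a matching measure for this count.

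**Figure D2:**
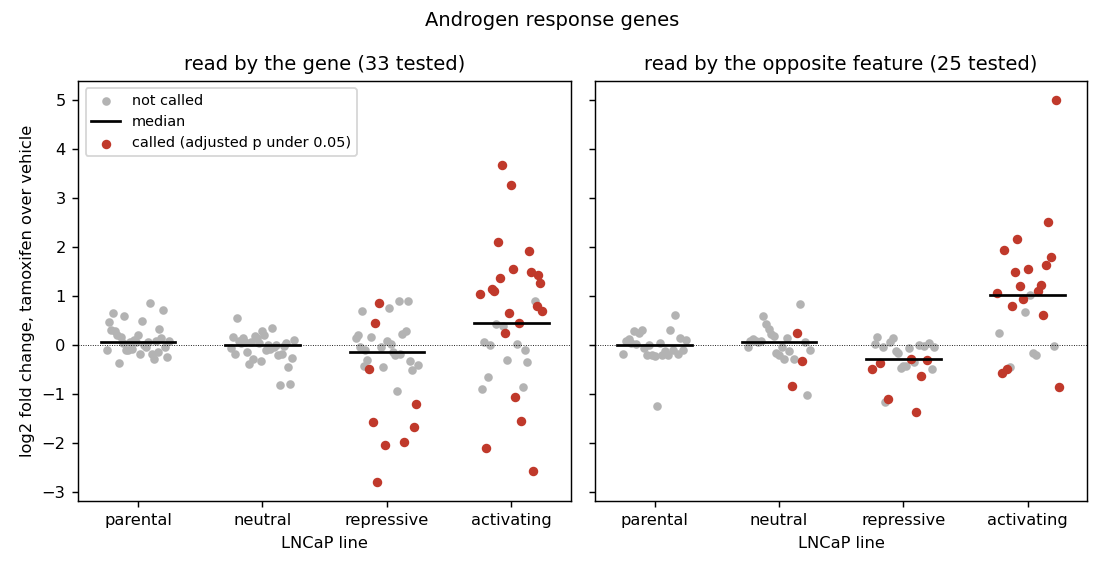
Log2 fold changes of androgen response genes (y axis) in the 4 LNCaP lines (x axis), read by their own feature (left, 33 tested) or the feature on the opposite strand (right, 25 tested), with red points called at an adjusted p under 0.05, grey points not called and a bar at the median. In the repressive line the medians are -0.14 and -0.28, and in the activating line 0.46 and 1.02.

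The same genes gave other values in the other lines. On their own features none was called in the neutral line (0 of 33, median 0.0077) or the parental line (0 of 33, median 0.075), while 17 were higher and 4 lower in the activating line (median 0.46). By the opposite features, 2 were lower and 1 higher in the neutral line, 0 in the parental line, and 15 higher and 3 lower in the activating line (median 1.02). Called shares over all tested features were 4.72% in the neutral line (2.61% higher, 2.11% lower), 0% in the parental line and 44.8% in the activating line (22% higher, 22.8% lower). In edgeR's test of the parental line, 306 features had a p below 0.05 before adjustment. The difference between the repressive and neutral responses was called for 1 of the 33 own features, KLK3, and for 7 of the 25 opposite features, all with the lower response in the repressive line (3.39% called over all features, 1.53% higher and 1.86% lower).

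Response elements were looked for in RefSeq promoter windows (GRCh38.p14) that run from 250 bases before to 50 bases after a transcription start. Of the 13 androgen response genes lowered on either reading, 11 had a window, and the hexamer AGAACA or its reverse complement TGTTCT was present in a window of 4 of them, KLK3, FKBP5, PMEPA1 and STK39. Over all promoters 14.8% of 35116 windows hold it, and 17.5% of 27305 genes have a window that does. The full palindrome, AGAACA and TGTTCT set 3 bases apart, was in none of the windows of the lowered genes and in 1 window in all (0.00285%). A match describes the letters of the window and not a bound site. The windows are shown because these are the lowered genes that hold the hexamer, with 1 of the windows given for PMEPA1. Capitals mark the hexamer on either strand, which starts at base -170 from the transcription start in KLK3 (chr19:50854665-50854964, plus strand), 0 in FKBP5 (chr6:35728534-35728833, minus strand), -229 in PMEPA1 (chr20:57710528-57710827, minus strand) and -112 in STK39 (chr2:168247546-168247845, minus strand), counting the start itself as 0.
KLK3: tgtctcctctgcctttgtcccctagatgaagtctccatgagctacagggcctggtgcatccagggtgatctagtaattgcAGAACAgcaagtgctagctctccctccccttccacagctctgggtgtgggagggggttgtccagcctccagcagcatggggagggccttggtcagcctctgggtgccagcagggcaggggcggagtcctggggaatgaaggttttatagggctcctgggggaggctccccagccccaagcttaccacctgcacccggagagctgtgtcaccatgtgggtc
FKBP5: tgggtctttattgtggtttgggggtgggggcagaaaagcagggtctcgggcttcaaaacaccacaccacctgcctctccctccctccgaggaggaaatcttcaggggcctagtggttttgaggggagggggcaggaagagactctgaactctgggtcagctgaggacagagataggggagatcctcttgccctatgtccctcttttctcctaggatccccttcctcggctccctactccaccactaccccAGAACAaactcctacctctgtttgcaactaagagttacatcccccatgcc
PMEPA1: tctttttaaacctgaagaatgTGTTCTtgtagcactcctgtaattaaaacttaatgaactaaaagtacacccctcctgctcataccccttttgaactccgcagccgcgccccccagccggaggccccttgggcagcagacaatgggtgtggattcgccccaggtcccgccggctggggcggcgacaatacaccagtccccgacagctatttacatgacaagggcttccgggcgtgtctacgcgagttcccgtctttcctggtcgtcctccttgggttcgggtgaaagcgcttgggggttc
STK39: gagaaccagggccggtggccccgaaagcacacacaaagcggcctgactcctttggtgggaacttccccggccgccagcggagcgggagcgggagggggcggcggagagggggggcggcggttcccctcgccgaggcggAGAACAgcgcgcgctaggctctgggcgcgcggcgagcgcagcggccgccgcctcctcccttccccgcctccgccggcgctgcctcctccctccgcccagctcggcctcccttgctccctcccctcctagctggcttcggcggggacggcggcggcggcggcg

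Of the luminal genes, 11 of 22 were tested, 1 was higher and 2 lower, against 7.8% and 9.99% of all features. The gene that rose was HOXB13, a luminal homeobox factor, from 45.1 ± 9.74 to 73.3 ± 10.8 (SD, n = 4 each), a change of 0.63 (edgeR adjusted p = 0.0158). It did not pass with DESeq2 (adjusted p = 0.0671) or without replicate 3 of either treatment. Beside KLK3 the other that fell was SLC45A3, a prostate membrane transporter, at -0.90 (edgeR adjusted p = 0.0233), which did not hold with DESeq2 or without tamoxifen replicate 2 or 3 or vehicle replicate 1 or 4. The luminal keratins KRT8 (0.09) and KRT18 (-0.41) were not called. Among the 22 genes of an androgen activity score, 9 were tested on their own feature, with 4 lower and 1 higher, beside the same 9.99% and 7.8%. The latter was MED28, a Mediator subunit whose exons overlap FAM184B, which went from 38.1 ± 4.64 to 70 ± 11.7 (SD, n = 4 each). By the opposite features 3 of 4 were lower, among them the feature opposite ADAM7, at -1.50 (edgeR adjusted p = 0.00878, 0.0560 with DESeq2).

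TTC19, opposite the transcriptional corepressor gene NCOR1, had normalized counts of 72.4, 87.9, 67.0 and 87.6 under vehicle and 20.6, 17.4, 50.4 and 52.7 under tamoxifen. All tamoxifen values were lower, replicates 1 and 2 the most, with a change of -1.22 (edgeR adjusted p = 0.00329).

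Counts fell on the feature opposite a glucose transporter gene. TBPL1, a relative of the TATA-binding protein, overlaps SLC2A12, which encodes GLUT12, on chromosome 6 from 134273308 to 134311570. It had normalized counts of 508, 477, 509 and 470 under vehicle and 163, 148, 179 and 173 under tamoxifen, with a gap between groups many times their spread. The log2 fold change was -1.61 (SE 0.0907, edgeR adjusted p = 5.91e-14). The neutral line gave -1.41, and the difference between the lines, -0.20, did not pass (edgeR adjusted p = 0.513). SLC2A12 on its own feature changed by -0.77 in the repressive line and was not called (edgeR adjusted p = 0.0604). In the neutral line SLC2A12 changed by -1.24 (edgeR adjusted p = 0.00272). Of 13 glucose transport and glycolysis genes tested on their own feature, 1 was higher, GAPDH at 0.60, beside 7.8% of all tested features. Opposite GAPDH, RP5-940J5.9 was higher too, at 0.37 (edgeR adjusted p = 0.00865 for GAPDH and 0.000432 for RP5-940J5.9).

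**Figure D3:**
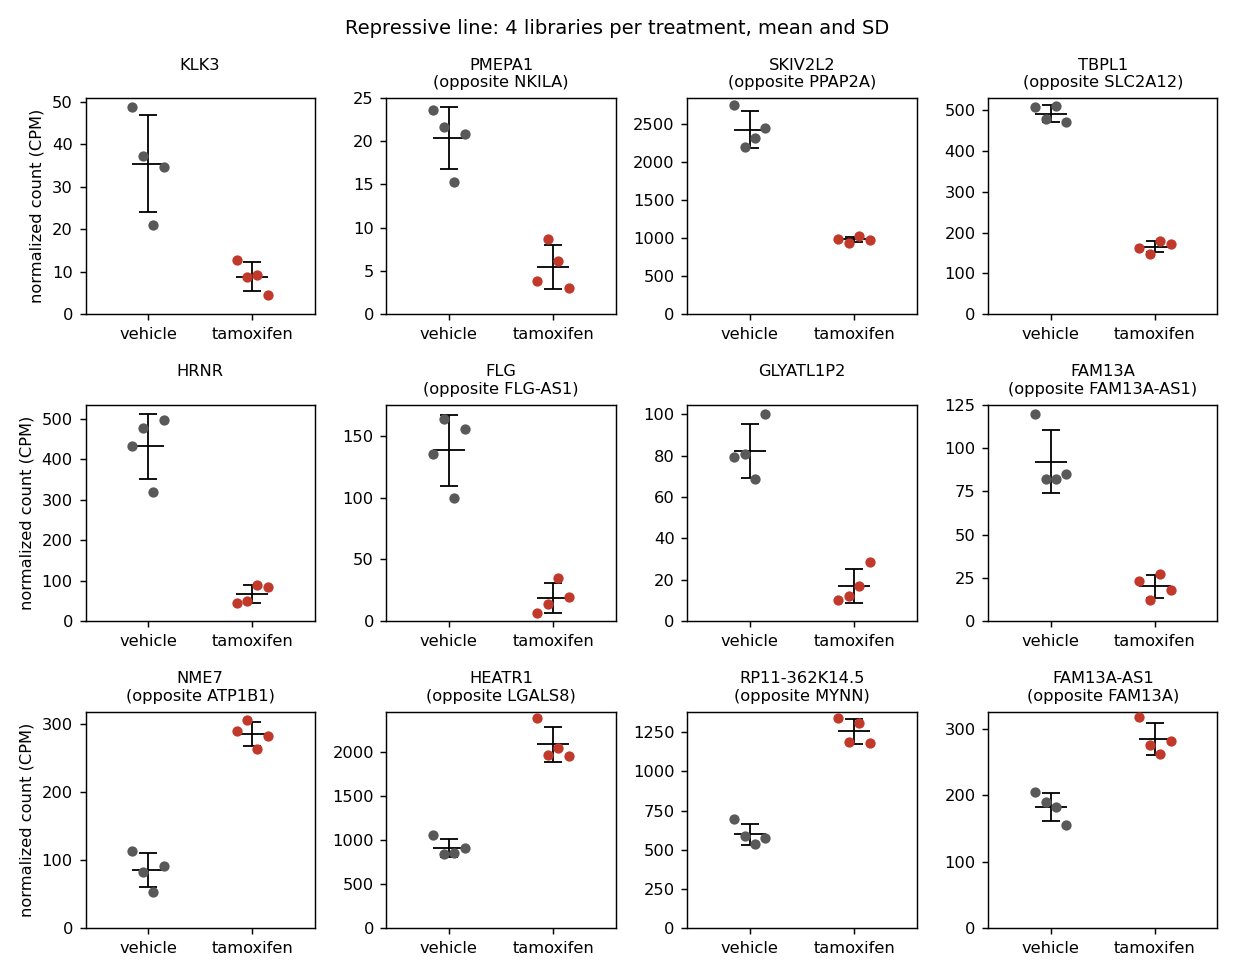
Normalized counts (y axis, CPM after TMM scaling, from 0) of 12 features in the 4 vehicle (grey) and 4 tamoxifen (red) libraries of the repressive line, with the mean and SD of each group in black. Treatments do not overlap in any of the 12 panels, but the rules that named several of these features require such separation. It was seen for 20.7% of all tested features.

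The largest fall among abundant features was at the filaggrin locus on 1q21, a cluster of genes for proteins of the skin barrier. HRNR (hornerin), on chromosome 1 from 152184552 to 152196669 free of opposite-strand exons, had 433, 477, 320 and 498 normalized counts under vehicle and 43.8, 50.5, 88.6 and 84.3 under tamoxifen. FLG (filaggrin), from 152274641 to 152297715, has exons that overlap those of FLG-AS1, so which RNA its counts came from cannot be told. It had 135, 164, 99.5 and 156 and then 6.43, 13.9, 35.1 and 19.6. Every tamoxifen library of both genes lay below the lowest vehicle library.

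HRNR changed by -2.75 (SE 0.207, edgeR adjusted p = 6.04e-06) and FLG by -2.96 (SE 0.305, edgeR adjusted p = 1.48e-05). In the neutral line they changed by -0.08 and 0.31, and the responses of the lines differed by -2.68 and -3.28 (edgeR adjusted p = 3.26e-07 and 2.29e-07). These were the only features tested in a window around the locus, and of 18 listed genes of the locus 6 had any count.

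A group of neighbours on chromosome 11 fell as well. GLYATL1, a glycine acyltransferase-like gene, lies from 58672871 to 58811000 beside its pseudogenes, with which it may share reads. GLYATL1P2 went from 79.3, 80.7, 68.9 and 100 to 10.3, 12.2, 16.8 and 28.6, GLYATL1 from 63.3 ± 11.2 to 21.6 ± 6.39 and GLYATL1P1 from 108 ± 24.0 to 36.4 ± 16.2 (SD, n = 4 each). Their log2 fold changes were -2.33, -1.62 and -1.62 (edgeR adjusted p = 2.17e-08, 5.38e-06 and 1.08e-05), and all had a lower response than in the neutral line (differences of -1.86, -1.37 and -1.57). GLYATL1P4 changed by -0.86 with overlapping values (edgeR adjusted p = 0.0563), and was called without tamoxifen replicate 3 or vehicle replicate 2, with a filter over the 8 libraries (edgeR adjusted p = 0.0489) and with 1 fit over all 32 libraries (0.0265). With the replicate block its edgeR adjusted p was 0.0125.

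DLX1 and RP5-1120P11.1, low-count features chosen after their values were seen, fell further still. DLX1, a homeobox gene on chromosome 2 from 172949468 to 172954405, had 26, 38, 19 and 23 counts under vehicle and 0, 0, 1 and 0 under tamoxifen. The sums of 106 and 1 give a ratio of 101 with an exact 95% interval from 17.8 to 4043, which covers counting error only (edgeR adjusted p = 1.49e-09). RP5-1120P11.1, a noncoding feature on chromosome 6 from 43899309 to 44042392, had 66, 63, 27 and 40 counts and then 3, 4, 8 and 3, a log2 fold change of -3.37 (SE 0.306, edgeR adjusted p = 1.57e-09). In the neutral line DLX1 also fell, by 2.84 on the log2 scale (edgeR adjusted p = 3.16e-05), and RP5-1120P11.1 changed by 0.71 (edgeR adjusted p = 0.102). Both moved the other way with the activating MACC, by 5.80 and 4.47 (edgeR adjusted p = 7.98e-22 and 1.64e-19).

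Other falls named by the rule were METRN, a neurotrophic factor gene (-1.67), AP1G2, a clathrin adaptor subunit (-1.30), and SNED1, an extracellular matrix gene (-1.16). RP11-66N24.3 and RP11-66N24.4, opposite AP1G2, were called lower too (-0.28 and -0.35). METRN had 50.1, 45.8, 51.7 and 48.7 under vehicle and 19.3, 20.9, 3.05 and 19.6 under tamoxifen, so that replicate 3 stood below its group. SNED1 went from 213 ± 27.1 to 98.6 ± 9.94 (SD, n = 4 each), with a response lower than in the neutral line by 0.88 on the log2 scale (edgeR adjusted p = 0.00232).

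Mitochondrial features took 1.43% ± 0.0846 of the counts under vehicle and 0.901% ± 0.125 under tamoxifen (SD, n = 4 each), lower in all 4 tamoxifen libraries (exact two-sided permutation p = 0.0286, the smallest this design allows). No such difference was detected in the neutral, parental or activating line (exact permutation p = 0.257, 0.771 and 0.571). Of the 15 mitochondrial protein and ribosomal RNA genes, 12 were called lower and 0 higher in the repressive line, against 4 higher and 0 lower in the neutral line. Over all tested features 9.99% were lower and 7.8% higher in the repressive line, and 2.11% lower and 2.61% higher in the neutral line. The protein genes encode subunits of the respiratory chain and are transcribed from the mitochondrial DNA itself, outside the nucleus.

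The larger falls lay side by side on the mitochondrial genome. From MT-CO2 to MT-ND5, bases 7586 to 14148, each of the 8 genes fell by at least 1.1 on the log2 scale, and MT-ND3 fell most, by 1.99 (SE 0.183, edgeR adjusted p = 2.18e-09). MT-ND3 had 120, 149, 128 and 129 normalized counts under vehicle and 36.0, 22.6, 29.0 and 48.2 under tamoxifen. MT-ND5, the most abundant of the block, had 2429, 2534, 2116 and 2616 and then 1136, 940, 1009 and 1131, a change of -1.25 (SE 0.0661, edgeR adjusted p = 1.70e-14). MT-ND4 changed by -1.59, MT-ATP6 by -1.57, MT-CO2 by -1.47, MT-ND4L by -1.44 and MT-CO3 by -1.36. The difference from the neutral response did not pass for MT-CO2, MT-CO3 and MT-ATP8 (edgeR adjusted p = 0.114, 0.0906 and 0.390). It passed for the rest of the block.

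Outside the block the changes were small. MT-ND1 changed by -0.34, MT-ND2 by -0.39, MT-CO1 by -0.42 and MT-ND6 by -0.25, all past the test, and MT-CYB by -0.28, which was not (edgeR adjusted p = 0.0692). The ribosomal RNA gene MT-RNR1 changed by -0.32 and was not called (edgeR adjusted p = 0.597), and in the neutral line it rose by 1.6 on the log2 scale (edgeR adjusted p = 0.0219). The calls of MT-ND1, MT-ND2, MT-CO1 and MT-ND6 were lost with 1 fit over all 32 libraries. MT-CO1 was also lost with DESeq2 (adjusted p = 0.0686) and without tamoxifen replicate 2, 3 or 4 or vehicle replicate 3 or 4, MT-ND6 when features without opposite-strand exons were fitted alone (edgeR adjusted p = 0.257) and without replicate 3 or 4 of either treatment, and MT-ND2 without tamoxifen replicate 4 or vehicle replicate 3 or 4, while MT-CYB was called without tamoxifen replicate 1 or vehicle replicate 3. MT-ND6, the only protein gene on the other strand, averaged 4407 counts, and the 12 others had a median of 165. Whether the 12 are read in sense or antisense was not tested.

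**Figure D4:**
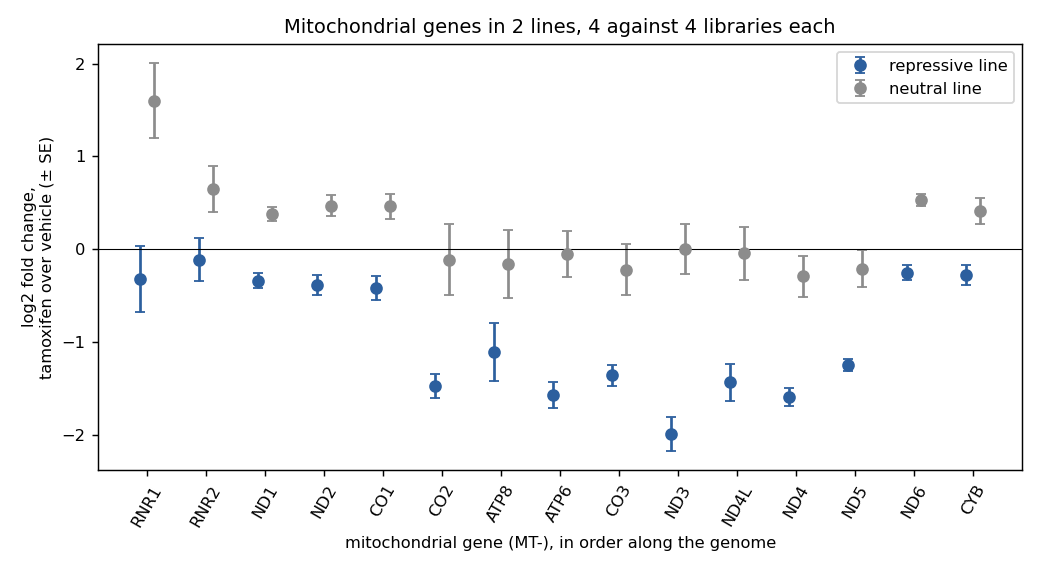
Log2 fold change of tamoxifen over vehicle with its standard error (y axis) for the 15 mitochondrial protein and ribosomal RNA genes in their order along the genome (x axis), in the repressive line (blue) and the neutral line (grey). The 8 genes from MT-CO2 to MT-ND5 lie between -1.99 and -1.1 in the repressive line.

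The features that rose most among abundant ones were NME7, C7orf49, RP11-2C24.6, HEATR1, CTD-3193O13.11, H2AFY, RP11-323N12.5 and RP11-362K14.5, with log2 fold changes from 1.02 to 1.68. NME7, a nucleoside diphosphate kinase family gene on chromosome 1 from 169101769 to 169337186, overlaps ATP1B1, the beta subunit of the sodium pump. It had 113, 83.1, 53.6 and 91.8 normalized counts under vehicle and 291, 306, 264 and 283 under tamoxifen. The groups were far apart, with a change of 1.68 (SE 0.136, edgeR adjusted p = 3.04e-10), and the response exceeded that in the neutral line by 1.12 (edgeR adjusted p = 0.000944).

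HEATR1, a ribosome biogenesis factor, and LGALS8-AS1, chosen after its values were seen, both overlap exons of LGALS8, the galectin 8 gene, on chromosome 1. HEATR1 went from 1058, 836, 848 and 905 to 2382, 1965, 2048 and 1960 and LGALS8-AS1 from 41.7, 51.8, 45.9 and 34.8 to 153, 129, 150 and 169. The log2 fold changes were 1.15 and 1.73 (edgeR adjusted p = 9.79e-13 and 1.92e-09). LGALS8 itself went from 694 ± 96.2 to 634 ± 144 (SD, n = 4 each), a change of -0.19 that did not pass (edgeR adjusted p = 0.517). The features on the strand opposite LGALS8 thus moved without a detectable change of its own feature.

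H2AFY, which encodes the histone variant macroH2A1, went from 225, 219, 228 and 216 to 548, 468, 533 and 452, a change of 1.13 (SE 0.0885, edgeR adjusted p = 1.06e-10). RP11-323N12.5, opposite the metalloproteinase inhibitor gene TIMP2, rose by 1.08. C7orf49, a gene of DNA end joining, rose by 1.17 and rose further in the neutral line, by 1.62, a difference of -0.46 (edgeR adjusted p = 0.0293, 0.0515 with DESeq2, and not called in 7 of the 16 fits without 1 library). Among features with no opposite-strand exon the rises named by the rule were RP11-816J6.3 (1.6), MIPOL1 (1.07), the ribosomal protein gene RPL41 (1.05), PTMS, parathymosin (0.95), and H1F0 (0.86). MIPOL1 rose by 0.92 in the neutral line and 1.35 in the activating line as well.

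Several raised features lie side by side on 3q26. RP11-362K14.5, opposite the zinc finger gene MYNN on chromosome 3 from 169494980 to 169498122, had 694, 586, 538 and 576 normalized counts under vehicle and 1342, 1189, 1310 and 1181 under tamoxifen, a change of 1.02 (SE 0.070, edgeR adjusted p = 6.00e-12). RP11-816J6.3, at 169487437 to 169489831, went from 15.9 ± 5.46 to 50.5 ± 5.88 (SD, n = 4 each). The neighbours ACTRT3, LRRC34 and PHC3, named because they lie there, changed by 1.15, 1.32 and 0.85 and SEC62 by -0.04. Thus 5 of the 6 features tested in a window around MYNN were called higher, beside 7.8% of all tested features. That count includes RP11-362K14.5 and RP11-816J6.3, which the rules had named as called rises. The 7.8% is therefore not a matching measure for it. ACTRT3 and PHC3 did not pass with DESeq2 (adjusted p = 0.0634 and 0.0631) nor did PHC3 without vehicle replicate 2. In the neutral line none of the 6 was called. The difference between the lines passed for RP11-362K14.5 and RP11-816J6.3 (edgeR adjusted p = 2.10e-07 and 0.0299). It did not pass for ACTRT3, LRRC34 or PHC3 (edgeR adjusted p = 0.719, 0.112 and 0.205), and ACTRT3 changed by 0.67 in the neutral line.

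At the FAM13A and GLIS2 loci a gene and the feature opposite it moved in opposite directions, and both were chosen after their values were seen. FAM13A, on chromosome 4 from 89647106 to 90032549, went from 120, 81.9, 82.3 and 84.8 to 23.2, 12.2, 27.5 and 18.1, a change of -2.21, while FAM13A-AS1 went from 205, 189, 182 and 154 to 318, 275, 263 and 282, a change of 0.60 (edgeR adjusted p = 7.97e-09 and 0.000112). FAM13A-AS1 changed by -0.47 in the neutral line, and the responses differed by 1.06 (edgeR adjusted p = 8.35e-06). GLIS2, a zinc finger repressor gene on chromosome 16, changed by -0.90 and RP11-295D4.1 opposite it by 1.9, from 22.9 ± 7.32 to 89.9 ± 13.7 (SD, n = 4 each). Among 760 pairs of opposite-strand features that were both tested, both were called in 33, in the same direction in 16 and in opposite directions in 17.

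Of the p53 target genes, 1 of 3 tested on their own feature and 2 of 4 by the opposite feature were called higher and none lower, where 7.8% of all features were higher and 9.99% lower. FAS, a death receptor gene, had 3, 4, 3 and 2 counts under vehicle and 10, 11, 18 and 14 under tamoxifen, a log2 fold change of 2.12 (SE 0.427, edgeR adjusted p = 0.000553). RP11-787I22.3, opposite the stress gene SESN1, rose by 0.81, from 159 ± 17.4 to 289 ± 37.6, and RP11-611O2.5, opposite MDM2, the p53 ubiquitin ligase, by 0.34, from 867 ± 80.3 to 1131 ± 47.5 (SD, n = 4 each). The death receptor gene TNFRSF10B changed by -0.87 on its own feature and was not called (edgeR adjusted p = 0.237). ATF4, a stress response factor, was the unfolded protein response gene that passed, at 1.21 (edgeR adjusted p = 0.00972), with 6, 9, 7 and 12 counts and then 32, 21, 13 and 13.

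Of 5 S phase genes tested on their own feature 0 were called, and of 8 G2/M genes 1 was higher, NCAPD2, against 17.8% of all features called. NCAPD2 is a condensin subunit, and it changed by 0.32 (edgeR adjusted p = 0.0214). Opposite features called 1 of 9 G2/M genes, NCAPD2 again, by MRPL51, which rose by 0.51, from 166 ± 14.7 to 243 ± 19.4 (SD, n = 4 each). NCAPD2 did not pass with DESeq2 or without tamoxifen replicate 3 or vehicle replicate 2 or 4. By opposite features 1 of 5 S phase genes was lower, CLSPN, a replication checkpoint gene, by RP11-435D7.3 at -0.98 (edgeR adjusted p = 0.0412), which did not hold with DESeq2 or without tamoxifen replicate 2 or 4 or vehicle replicate 2, 3 or 4. MKI67, a proliferation marker, changed by -0.13 (edgeR adjusted p = 0.846).

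Of the remaining lists most had few tested members, and 17.8% of all tested features were called. Cholesterol synthesis genes gave 0 calls of 2 on their own feature and 0 of 7 by the opposite one, basal genes 0 of 2, interferon response genes 0 of 1, neuroendocrine genes 0 of 1 and prostate secretion genes 0 of 2 and 0 of 1. Of the sodium pump genes 0 of 2 were called on their own feature and 1 of 2, ATP1B1 by NME7, by the opposite one, and of the mesenchymal genes 0 of 3 and 1 of 3. Among 7 KRAB cofactor genes tested on their own feature 0 were called, and RP5-940J5.6 opposite CHD4, a nucleosome remodeller, rose by 0.38 (edgeR adjusted p = 0.00119). Estrogen response genes gave 0 calls of 2, and AF127577.10 opposite NRIP1, a nuclear receptor corepressor, rose by 0.35 (edgeR adjusted p = 0.0238), though not with DESeq2 or without tamoxifen replicate 3 or vehicle replicate 1 or 3. VIM-AS1, opposite the mesenchymal gene VIM, had 1, 3, 3 and 7 counts and then 9, 7, 8 and 18, a change of 1.56 (edgeR adjusted p = 0.0238), also not called with DESeq2 or without tamoxifen replicate 4 or vehicle replicate 1 or 2.

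**Figure D5:**
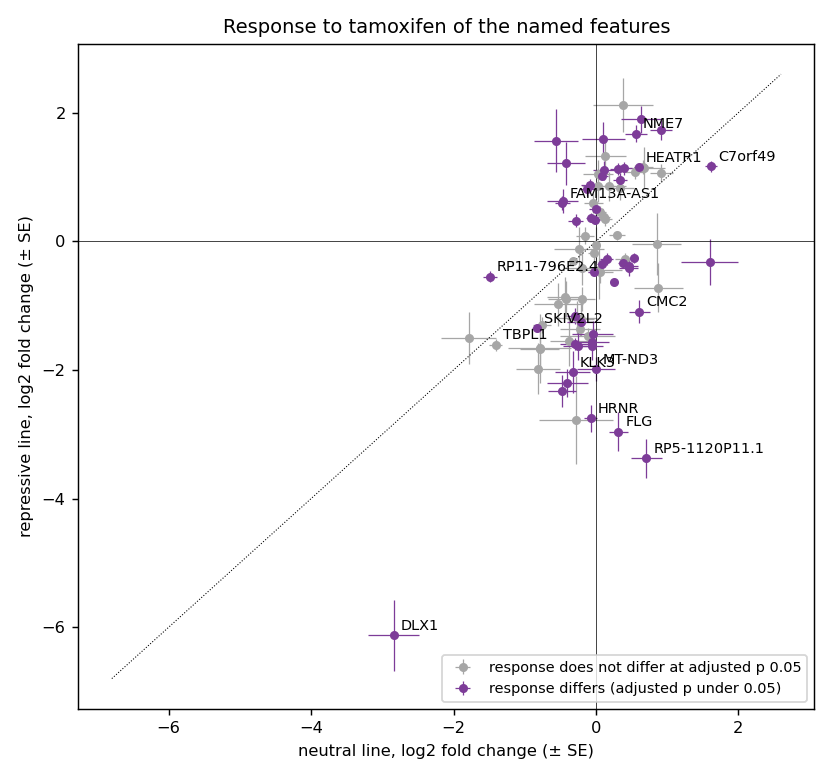
Log2 fold change of tamoxifen over vehicle in the repressive line (y axis) against the neutral line (x axis) for the 90 named features, each with its standard errors. Purple points differ in response between the lines at an adjusted p under 0.05, such as HRNR (-2.75 against -0.08), and the dotted line marks equal responses.

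The neutral MACC lacks KRAB but carries the same DNA binding domain and receives the same tamoxifen. The responses of the repressive and neutral lines differed in 135 of 3985 features (3.39%), with the higher response in the repressive line in 61 and the lower in 74. Against the parental line, which holds no construct, 270 features differed (6.78%), 120 with a higher response (3.01%) and 150 with a lower one (3.76%). Of 709 features called in the repressive line, 121 were also called in the neutral line, which is 17.1% of the repressive and 64.4% of the neutral calls, and 112 of the 121 moved in the same direction. SKIV2L2 was lower in both lines (-1.35 and -0.83), and more so in the repressive line (difference -0.53, edgeR adjusted p = 0.000237).

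Named by the rule for the largest differences were FLG, HRNR, MT-ND3, CMC2 and GLYATL1P1 on the lower side and NME7, FAM13A-AS1, RP11-344B2.2, ST7-AS1 and the feature opposite BTG1 on the higher side. CMC2 changed by 0.61 in the neutral line (edgeR adjusted p = 0.0503) and by -1.09 in the repressive line, a difference of -1.70 (edgeR adjusted p = 0.00166). RP11-344B2.2, opposite the adaptor gene GAREM, rose by 1.1 and ST7-AS1, opposite the ST7 gene, by 0.87 in the repressive line, while neither was called in the neutral line (0.12 and -0.08). The feature opposite the antiproliferative gene BTG1, on chromosome 12 from 92539349 to 92620333, changed by -0.55 in the repressive and -1.49 in the neutral line. KLK3 differed by -1.71 between the lines (edgeR adjusted p = 0.0188). That call was lost without tamoxifen replicate 4 or vehicle replicate 1 (edgeR adjusted p = 0.0601 and 0.0501). For FKBP5 and PMEPA1 the difference between the lines did not pass (edgeR adjusted p = 0.135 and 0.257).

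The activating MACC moved several of the lowered features the other way. Of the 458 features called in both the repressive and the activating line, however, 240 had log2 fold changes of matching sign. For the other 218 the signs differed. Repressive and activating responses differed in 1430 features (35.9%), higher in the repressive line for 17.8% and lower for 18.1%. FKBP5 rose by 3.69 on the log2 scale with VP64 (edgeR adjusted p = 1.44e-11). PMEPA1 changed by -1.98 with KRAB and 1.93 with VP64, ELOVL5 by -1.56 and 2.10 and SKIV2L2 by -1.35 and 1.24, each with a difference past the test (edgeR adjusted p = 1.58e-08, 2.61e-09 and 1.77e-22). For TBPL1 the values were -1.61 and 0.28 and for KLK3 -2.03 and 0.66. HRNR (-0.62, adjusted p = 0.0558) and FLG (-0.01, adjusted p = 0.978) were not called in the activating line, and METRN and AP1G2 were lower with both constructs, with differences that did not pass (edgeR adjusted p = 0.720 and 0.237).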

How the data were processed

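RNA-seq was made from 32 LNCaP cultures with a stranded mRNA kit, 4 per line and treatment, and 8 of them enter the comparison described here. The authors aligned the reads to GRCh37 with the nf-core RNA-seq pipeline and deposited estimated counts per gene, not normalized, from salmon; the submitters' processing notes name Salmon 1.9.0 and DESeq2 1.28.0. The strand setting and the annotation release are not given in the sources used here.

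Estimated counts were rounded. Features that passed edgeR's expression filter over the 8 groups of the series (3985) were scaled by TMM and tested within the line with the robust quasi-likelihood test (edgeR 4.0.16, R 4.3.3), with p-values adjusted over all of them after Benjamini and Hochberg at 0.05. Differences of response came from an interaction term over the 16 libraries of a pair of lines. Totals and shares were compared by an exact permutation test over 70 splits. Normalized counts are CPM after TMM over all 32 libraries. Opposite-strand exons were taken from GENCODE release 44 on GRCh37, in which 96.1% of the features were found. On simulated counts, 60 of 100 changes of 1 and 96 of 100 changes of 2 on the log2 scale were called, with 9 calls among 3785 unchanged genes.

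Named features were the 8 largest rises and 8 largest falls with a mean of at least 100 counts, the 5 and 5 largest without opposite-strand exons at a mean of at least 20 counts, both only with groups that do not overlap, up to 6 called members of each of 26 lists by smallest adjusted p, the 5 and 5 largest differences from the neutral line at a mean of at least 50 counts, 5 markers, and ESR1 and ZNF10 as a check of the construct. Some features are not reported here. The rest gave 58 features, and 32 more were named after their values were seen: members of the lists, of the mitochondrial genome and of the loci described, and the features so marked. The members, lists and rules were chosen with earlier results of these data known. Alternatives were DESeq2 1.42.0, its size factors, other filters, a replicate block, 1 fit over all libraries and leaving out each library.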

Additional observations from a re-analysis of the deposited data

Results flagged for a closer look

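In 9 of 186 groups of 4 normalized counts, 1 library lay further from its group than Dixon's limit allows, and chance alone marks about 1 group in 20. Single libraries stood low for DOPEY1 (279.3 in vehicle replicate 3), METRN (3.05 in tamoxifen replicate 3), HOXB13 (30.6 in vehicle replicate 3) and PHC3 (34.8 in tamoxifen replicate 2). Others stood high for FAM13A (120 in vehicle replicate 1), H1F0 (37.6 in vehicle replicate 1), MT-ND6 (7971 in vehicle replicate 4), VIM-AS1 (27.1 in tamoxifen replicate 4) and DLX1 (1.53 in tamoxifen replicate 3, a single count).

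For 48 named features the response of the repressive line differed from that of the neutral line in edgeR's interaction test, and the values are differences of log2 fold changes, repressive minus neutral. The lower responses outside the mitochondrial genome were those of RP5-1120P11.1 (-4.09), DLX1 (-3.32, with -2.84 in the neutral line itself), FLG (-3.28), HRNR (-2.68), GLYATL1P2 (-1.86), FAM13A (-1.81), KLK3 (-1.71), CMC2 (-1.70), GLYATL1P1 (-1.57) and GLYATL1 (-1.37). Smaller ones were those of CCDC152 (-0.89), SNED1 (-0.88), SKIV2L2 (-0.53), C7orf49 (-0.46), RP11-326A19.5 (-0.45), RP11-66B24.4 (-0.44) and DOPEY1 (-0.43).

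Mitochondrial genes with a lower response were MT-ND3 (-1.99), MT-RNR1 (-1.92), MT-ATP6 (-1.51), MT-ND4L (-1.39), MT-ND4 (-1.30), MT-ND5 (-1.04), MT-CO1 (-0.88), MT-ND2 (-0.86), MT-ND6 (-0.78) and MT-ND1 (-0.72).

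Higher responses of at least 0.9 were those of VIM-AS1 (2.13), ATF4 (1.63), RP11-816J6.3 (1.49), RP11-295D4.1 (1.26), NME7 (1.12), HOXB13 (1.1), FAM13A-AS1 (1.06), RP11-344B2.2 (0.98), ST7-AS1 (0.95), the feature opposite BTG1 (0.94), RP11-787I22.3 (0.94) and RP11-362K14.5 (0.93). The remaining ones were those of H2AFY (0.81), LGALS8-AS1 (0.81), CTD-3193O13.11 (0.73), PTMS (0.60), NCAPD2 (0.60), HEATR1 (0.55), MRPL51 (0.51), RP5-940J5.9 (0.44) and RP11-611O2.5 (0.34).

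Several of these differences were lost when 1 of the 16 libraries of a pair of lines was left out. That was so in 12 of 16 fits for RP11-295D4.1, 11 for MRPL51 and MT-RNR1, 10 for DOPEY1, 8 for LGALS8-AS1 and RP11-611O2.5, 7 for ATF4, C7orf49, DLX1 and HOXB13, 6 for RP11-816J6.3, 5 for MT-ND4L, PTMS and VIM-AS1, and 2 for KLK3. With no filter on low counts the differences of C7orf49, DLX1, DOPEY1, MRPL51, MT-ND4, MT-ND5, MT-RNR1 and RP11-611O2.5 did not pass (edgeR adjusted p from 0.0875 to 0.372), and with DESeq2 those of C7orf49, DOPEY1 and MRPL51 did not.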

How the results depend on the processing

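The number of features called in the repressive line was 709, and 451 with DESeq2 (195 higher, 256 lower), of which 447 were among the 709. It was 133 of 902 when only features without opposite-strand exons were fitted, which tests fewer features, and 534 to 729 when 1 library was left out. Androgen response genes called lower on their own feature numbered 7, but 1 under a filter at a mean of 20 counts and 4 with a filter over the 8 libraries, settings that test 13 and 23 of the 33 genes, and 5 to 7 with a library left out. Called higher were 2, or 1 without opposite-strand exons (13 genes tested), and 2 to 3 with a library left out. Lower calls by the opposite feature numbered 6 to 7 with a library left out. Mitochondrial genes called lower fell from 12 to 7 with 1 fit over all 32 libraries, and the cause was not tested. They numbered 9 to 13 with a library left out. Over all lists 31 of 122 tested members were called on their own feature and 20 of 76 by the opposite feature, beside 17.8% of all tested features. The mitochondrial genome alone gave 12 of the 31.

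Differences from the neutral line numbered 90 to 145 with a library left out, those from the parental line 187 to 273, and those from the activating line 1330 to 1416. The parental count fell from 270 to 165 with no filter, where more features share the adjustment.

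Same-numbered deviations of the 2 treatments correlated at 0.247, 0.0666, 0.0398 and 0.137 for replicates 1 to 4. The best correlation with another number was 0.00632, 0.0174, 0.0667 and 0.0430, so only replicate 3 correlated better with another number. Whether the replicate numbers mark pairs was not settled, and the main test did not pair them. With the replicate number as a block, 931 features were called in the repressive line, and differences from the neutral line rose from 135 to 205 (94 higher, 111 lower).

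The difference in library totals was -8407 to 94071 counts with a library left out, negative without vehicle replicate 3, and that in the share on opposite-strand features -1.95 to 1.17 percentage points, while the mitochondrial share differed by -0.558 to -0.466. Directions of uncalled features turned with a library left out for MKI67 (-0.29 to 0.049), ZNF10 (-0.20 to 0.055), SEC62 (-0.51 to 0.33) and ESR1 (-0.034 to 0.16). For the 90 named features, 27 of the values under other alternatives lost the call, over 16 features, and 4 gained it. Of the differences from the neutral line, 12 values lost the call, over 8 features, and 111 values over 15 features with a library left out. Totals of 470343 to 791496 counts limit what can be seen of low genes such as FKBP5, and uncalled members of the lists are not shown to be unchanged.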
